A study of Homo sapiens with 6 samples.

Results

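Fatty acid elongases (ELOVL1, ELOVL3, ELOVL4, ELOVL5, ELOVL6 and ELOVL7), desaturases (FADS1, FADS2 and SCD) and fatty acid synthase (FASN) were followed in a keratinocyte culture model of psoriasis with and without knockdown of EIF4E. The 10 genes were chosen by name. Of the 29176 genes of the expression table, 9 carried one of these names, and ELOVL3 was not analysed here. All values come from HaCaT cells, an established line of spontaneously immortalised human keratinocytes. The group si-eIF4E+M5 (3 libraries) had received a small interfering RNA against EIF4E, whose product recognises capped messenger RNAs when translation starts. The group si-NC+M5 (3 libraries) had received a control small interfering RNA. Both groups had been stimulated with M5, a mixture of inflammatory cytokines whose components the labels do not list, and total RNA was taken after 48 hours. Every value below therefore compares stimulated cells with stimulated cells, and no unstimulated or untransfected cells enter the comparison. The labels do not say whether the replicates were separate cultures, so p-values measure only the spread between these libraries, which may be technical.

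FASN builds saturated fatty acids, mainly palmitate, from acetyl-CoA and malonyl-CoA in the cytosol. ELOVL enzymes of the endoplasmic reticulum then add carbons from malonyl-CoA in a repeating cycle of condensation, reduction, dehydration and reduction, of which the ELOVL protein carries out the first and rate-limiting condensation. Desaturases put in double bonds, SCD in saturated fatty acids to give oleate and palmitoleate, and FADS1 and FADS2 in polyunsaturated fatty acids on the way to arachidonic acid. In epidermis, very long chain fatty acids made by ELOVL1 and ELOVL4 go into the ceramides of the water barrier. Transcription of FASN, SCD, ELOVL6, FADS1 and FADS2 is known to be driven by SREBP-1, the product of SREBF1, and by the sterol sensor LXR.

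Library totals were between 72094634 and 73889969 counts in si-eIF4E+M5 and between 71044961 and 74246501 counts in si-NC+M5. A count of 0 allows up to 3 counts, which is 0.0404 to 0.0422 CPM (counts scaled to library size), for counting error only. EIF4E stood at 21.0, 18.4 and 23.5 CPM in si-eIF4E+M5, against 50.9, 48.2 and 51.2 CPM in si-NC+M5, so each si-eIF4E+M5 library was below each si-NC+M5 library. The fitted level left by the knockdown was 41.9% of si-NC+M5 (95% confidence interval 36.4 to 48.2%), with adjusted p = 7.2e-05 (quasi-likelihood test of edgeR, adjusted by Benjamini-Hochberg). All 10 keratinocyte markers had rows, with a summed level of 8328 to 9255 CPM in si-eIF4E+M5 and 8094 to 8485 CPM in si-NC+M5. Of 13 markers of leukocytes, fibroblasts, endothelium, melanocytes and sebocytes 9 had rows, and their sum was 9.25 to 11.1 CPM in si-eIF4E+M5 and 5.61 to 6.60 CPM in si-NC+M5. Most of that difference was COL1A1 (6.51 ± 1.42 against 3.10 ± 0.47 CPM), while the other fibroblast markers COL1A2 and PDGFRB and the T cell marker CD3E were at 0.22 CPM or less in each library. The part of these transcripts in the results below was not tested.

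Across all genes 2853 of 18022 passed an adjusted p of 0.05, which is 15.8%, with 7.44% higher and 8.40% lower in si-eIF4E+M5. All 9 genes of fatty acid synthesis, elongation and desaturation passed the filter on low counts. Of these 9, 3 fell (ELOVL5, ELOVL6 and ELOVL7), 1 rose (FADS2) and 5 did not pass (ELOVL1, ELOVL4, FADS1, SCD and FASN). The groups did not overlap in the 4 called genes and overlapped in the other 5, where 33.8% of all tested genes had groups that did not overlap. The median log2 fold change of the 9 was -0.06, beside -0.01 over all tested genes. The changes were unequal in size, and only ELOVL7 among the 9 changed by more than 2-fold.

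Short stretches of the promoters are shown for the called genes and for SCD, the most abundant of the 9, because SREBP factors act at E-boxes and sterol elements next to NF-Y and Sp1 sites. RefSeq windows on GRCh38.p14 from 250 bases before to 50 after the start were at hand for 8 of the 9 genes, all but FASN. Both strands were searched for the E-box CACGTG, the NF-Y box CCAAT, the GC box of Sp1 GGGCGG, the sterol element of the LDL receptor gene (ATCAC followed directly by CCCAC), its looser form TCACNCCAC and the LXR element (AGGTCA repeated after a spacer of 4 bases). The E-box was found for 2 of 8 genes (ELOVL4 and ELOVL5), against 7.26% of 35116 RefSeq windows of the same length. CCAAT was found for 5 of 8 genes (34.6% of all windows) and GGGCGG for 7 of 8 (45.0%). A gene was counted if any of its windows had a match, and FADS2 has 2 windows, while the percentages count single windows. Neither sterol element (0.0456% and 1.13% of all windows) nor the LXR element (0.0199%) was found in the windows of these 8 genes, which says only that these letters are absent from them. None of the matches printed here overlapped a match of another motif. In the lines below, written 5′ to 3′ on the strand of the gene, capitals mark the match on either strand, and distances are counted to the RefSeq start. FADS2 has 2 RefSeq starts (61816203 and 61816404), and its printed site is upstream of the second and downstream of the first. The starts used for FADS2, ELOVL5, ELOVL6 and ELOVL7 lie inside the gene spans of the expression table, as do the sites of ELOVL5 and FADS2. The lines are a selection. SCD also has GC boxes 33 and 11 bases upstream, and FADS2 a CCAAT 5 bases downstream of the second start. ELOVL7 has further GC boxes 169, 160 and 133 bases upstream.
ELOVL5, E-box, chr6:53349146-53349171, minus strand, 211 bases upstream: ttcccagagaCACGTGgaaccgaggg
ELOVL5, NF-Y box, chr6:53349058-53349082, minus strand, 122 bases upstream: ttgtcccgcgATTGGctcccgggcc
ELOVL5, NF-Y box, chr6:53349004-53349028, minus strand, 68 bases upstream: tcgggtcccgATTGGctggccgcgc
ELOVL6, GC box, chr4:110198722-110198747, minus strand, 122 bases upstream: tgtcccccccGGGCGGagagaggtcg
ELOVL7, GC box, chr5:60844333-60844358, minus strand, 79 bases upstream: ggcgggcaggGGGCGGcgctgcgcgc
FADS2, GC box, chr11:61816240-61816265, plus strand, 154 bases upstream of the second start: ggttctgtccCCGCCCagagacctga
SCD, NF-Y box, chr10:100346994-100347018, plus strand, 229 bases upstream: ttgcgccgagCCAATggcaacggca
SCD, NF-Y box, chr10:100347037-100347061, plus strand, 186 bases upstream: ttcccttcggCCAATgacgagccgg
The 3 elongases that fell do not share a motif of this search: ELOVL5 has the E-box and CCAAT and no GC box, and ELOVL6 and ELOVL7 have the GC box alone.

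The 9 genes spanned a wide range of levels per length, given here as deposited FPKM (fragments per kilobase, scaled to library size). SCD was by far the most abundant, at 985 ± 52.1 FPKM in si-eIF4E+M5 and 875 ± 55.3 FPKM in si-NC+M5 (SD, n = 3 here and throughout), and ranked 24 among all 29176 genes by mean FPKM. Its transcripts took 0.52 to 0.57% of all counts in si-eIF4E+M5 libraries and 0.45 to 0.51% in si-NC+M5 libraries. FASN followed at 159 ± 25.03 FPKM in si-eIF4E+M5 and 139 ± 11.6 FPKM in si-NC+M5, at rank 210. ELOVL1 was the main elongase (39.96 ± 0.73 and 40.7 ± 2.36 FPKM), followed by ELOVL5 (12.5 ± 0.41 and 15.7 ± 0.85 FPKM) and ELOVL6 (6.20 ± 0.01 and 7.08 ± 0.22 FPKM), with si-eIF4E+M5 first in each pair. ELOVL4, the elongase of the longest barrier lipids, stood at 1.97 ± 0.23 FPKM in si-eIF4E+M5 and 2.48 ± 0.85 FPKM in si-NC+M5. The lowest levels were those of ELOVL7, FADS2 and FADS1, all under 1.6 FPKM in every library.

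**Figure D1:**
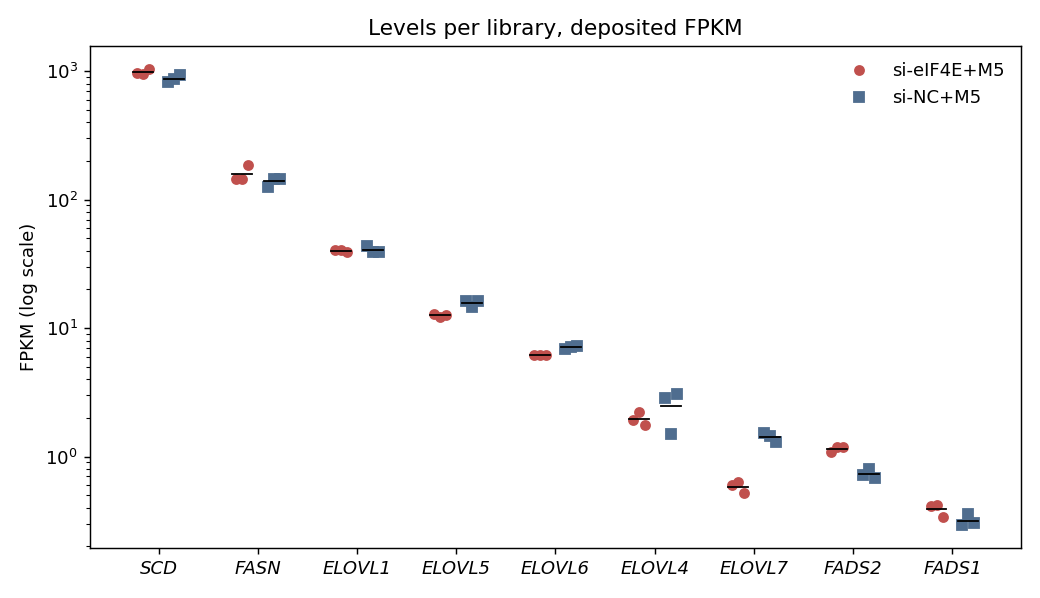
Deposited FPKM (log axis) of the 9 genes in each library, ordered by mean level, with circles for si-eIF4E+M5, squares for si-NC+M5 and a bar for each group's mean (n = 3). SCD lies near 1000 FPKM and FADS1 under 0.5 FPKM, and ELOVL7 and FADS2 change places between the groups in FPKM, though not in CPM.

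Most neighbours in this order were separated in both groups. The exception was ELOVL4 beside ELOVL7 in si-NC+M5, where the lowest ELOVL4 library (1.5002 FPKM) lay under the highest ELOVL7 library (1.531 FPKM). ELOVL7 and FADS2 exchanged places. In si-eIF4E+M5 the FADS2 level was 1.09, 1.18 and 1.19 FPKM and the ELOVL7 level 0.60, 0.64 and 0.52 FPKM, and in si-NC+M5 FADS2 was at 0.72, 0.79 and 0.68 FPKM and ELOVL7 at 1.53, 1.44 and 1.29 FPKM. In FPKM, FADS2 was thus above ELOVL7 in each si-eIF4E+M5 library and below it in each si-NC+M5 library. This exchange depends on the division by gene length. In CPM, which does not divide by length, FADS2 was above ELOVL7 in every library of both groups. The si-NC+M5 libraries had 8.04, 9.01 and 7.66 CPM of FADS2 against 7.17, 6.85 and 6.13 CPM of ELOVL7. FPKM of FADS1 and FADS2 rests on long gene models, with 10230 and 11026 bases of merged exons in GENCODE v29, beside 2507 bases for ELOVL1 and 4576 for ELOVL7. Their place at the end of the order depends on those lengths.

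ELOVL7, which prefers saturated acyl-CoAs of long chain length, showed the largest change of the 9 genes (ENSG00000164181, minus strand of chromosome 5, 60751791 to 60844274 on GRCh38). It had 2.71, 3.03 and 2.44 CPM in si-eIF4E+M5, against 7.17, 6.85 and 6.13 CPM in si-NC+M5, from 203, 223 and 179 counts against 510, 479 and 449. The highest si-eIF4E+M5 library was well below the lowest si-NC+M5 library. The fitted level was 40.6% of si-NC+M5 (95% confidence interval 31.9 to 51.8%), a log2 fold change of -1.30 ± 0.16 (SE), with adjusted p = 7.2e-04 in edgeR. This fall was close in size to that of the targeted EIF4E, though the difference between the genes was not tested. In bulk RNA, fewer cells that express a gene and less of its RNA per cell cannot be told apart. Taken alone, ELOVL7, ELOVL5, ELOVL6 and FADS2 each reached p = 0.1 in an exact permutation test (two-sided), and 3 against 3 libraries cannot give a smaller p.

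ELOVL5, which elongates polyunsaturated fatty acids between the FADS2 and FADS1 steps, was lower by a smaller amount (ENSG00000012660, minus strand of chromosome 6, 53267398 to 53349179). Its level was 49.9, 48.6 and 50.2 CPM in si-eIF4E+M5, against 64.3, 59.8 and 65.5 CPM in si-NC+M5. The si-eIF4E+M5 libraries lay within 2 CPM of each other and well below every si-NC+M5 library. The fitted level was 78.5% of si-NC+M5 (71.5 to 86.1%), a log2 fold change of -0.35 ± 0.06 with adjusted p = 0.0039 in edgeR. The call of ELOVL5 held in each of the 16 alternative fits (highest adjusted p = 0.020 in edgeR). Its promoter is the one with the E-box at 211 bases upstream shown above.

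ELOVL6, which takes the palmitate made by FASN to stearate, showed the smallest of the called changes (ENSG00000170522, minus strand of chromosome 4, 110045846 to 110198653). It had 45.7, 47.3 and 47.3 CPM in si-eIF4E+M5, against 51.9, 55.8 and 55.8 CPM in si-NC+M5. The groups did not overlap, with a gap between them of several CPM. The fitted level was 85.8% of si-NC+M5 (78.2 to 94.1%) and the log2 fold change -0.22 ± 0.06 (adjusted p = 0.033 in edgeR). This call was lost in 8 of 16 alternatives, among them the fit without any of 5 libraries in turn (si-eIF4E+M5 replicates 1, 2 and 3 and si-NC+M5 replicates 2 and 3), with adjusted p between 0.070 and 0.13 in edgeR and log2 fold changes of -0.23 to -0.20.

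ELOVL1, the broadly expressed elongase of saturated and monounsaturated very long chains, did not pass (ENSG00000066322, minus strand of chromosome 1, 43363398 to 43368074). It had 102, 107 and 103 CPM in si-eIF4E+M5, against 114, 105 and 105 CPM in si-NC+M5, and the groups overlapped. With the deepest coverage of the elongases (7363 to 8110 counts per library), its interval was narrow: 96.2% of si-NC+M5, with 87.9 to 105% as limits (log2 fold change -0.06 ± 0.06, adjusted p = 0.59 in edgeR). ELOVL4 also did not pass (ENSG00000118402, minus strand of chromosome 6, 79914814 to 79947553). Its level was 5.85, 7.02 and 5.59 CPM in si-eIF4E+M5, against 9.01, 4.83 and 9.82 CPM in si-NC+M5. Replicate 2 of si-NC+M5 was the lowest of all 6 libraries, while the other si-NC+M5 libraries were above every si-eIF4E+M5 library. The log2 fold change was -0.36 ± 0.24 (adjusted p = 0.37 in edgeR), with limits of 54.0 and 113% of si-NC+M5. Without si-NC+M5 replicate 2 it was -0.61 with adjusted p = 0.045 in edgeR, so 1 library decides whether ELOVL4 is called.

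**Figure D2:**
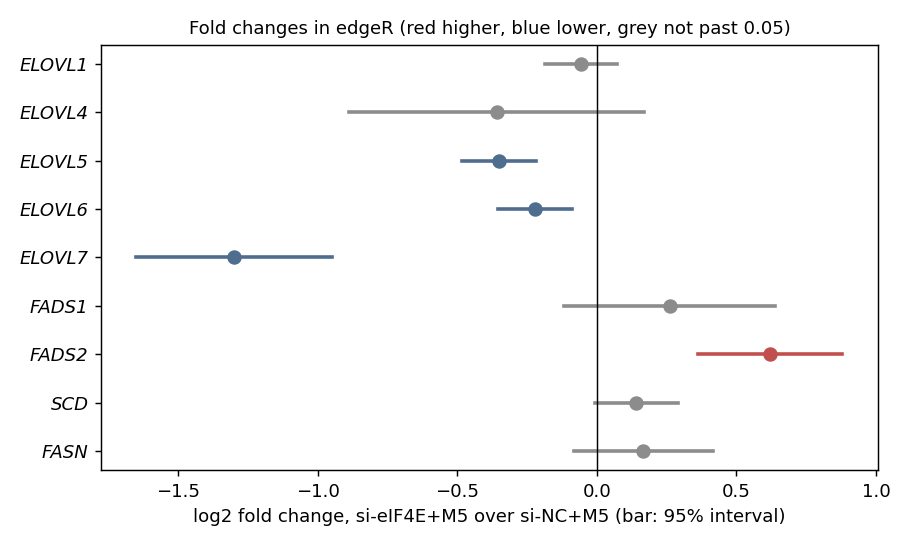
Fold changes of the 9 genes on the log2 scale (si-eIF4E+M5 over si-NC+M5, n = 3 each) from edgeR, with 95% confidence intervals as bars, in blue for genes that fell, red for the gene that rose and grey for genes that did not pass. ELOVL7 at -1.30 lies apart from the other elongases, and the interval of SCD just reaches below 0.

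The summed level of the 5 elongases was 62.0, 61.6 and 60.2 FPKM in si-eIF4E+M5 and 70.8, 64.1 and 67.2 FPKM in si-NC+M5, and each si-eIF4E+M5 library was below each si-NC+M5 library. The si-eIF4E+M5 mean was 90.9% of the si-NC+M5 mean (exact permutation p = 0.1, two-sided). The make-up of this sum was compared as shares within each library, which do not depend on how libraries are scaled. Shares of the same sum depend on each other, since a fall of any gene raises the shares of the rest, so they are not separate results. ELOVL1 held 65.2 ± 0.37% of the sum in si-eIF4E+M5 and 60.5 ± 1.57% in si-NC+M5, while its own mean level was 39.96 and 40.7 FPKM. ELOVL5 held 20.5 ± 0.70% in si-eIF4E+M5 and 23.2 ± 0.73% in si-NC+M5. ELOVL7 held 0.95 ± 0.09% in si-eIF4E+M5 and 2.11 ± 0.16% in si-NC+M5. For these 3 genes the groups did not overlap, and each gave an exact permutation p = 0.1 (two-sided; 0.17 after Benjamini-Hochberg adjustment over the 5 shares), the smallest unadjusted p that the design allows. The shares of ELOVL6 (10.1 ± 0.16% in si-eIF4E+M5 and 10.5 ± 0.81% in si-NC+M5) and of ELOVL4 (3.21 ± 0.34% and 3.65 ± 1.16%) overlapped between the groups (exact permutation p = 0.4 and 0.6).

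**Figure D3:**
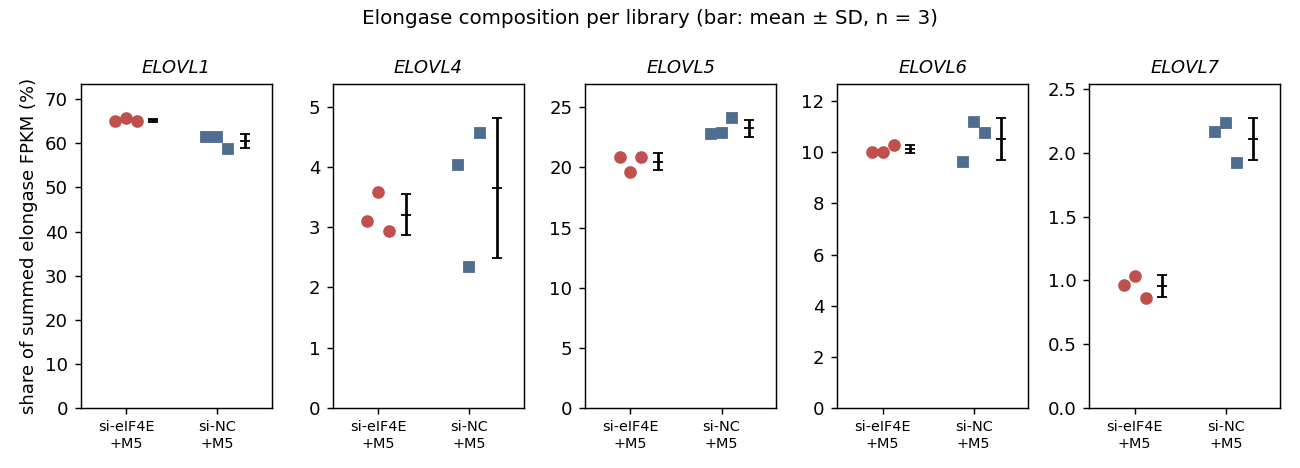
Share of each elongase in the summed FPKM of the 5 elongases, in percent, with a panel and a vertical scale per gene, a point per library (circles si-eIF4E+M5, squares si-NC+M5) and mean ± SD beside them (n = 3). ELOVL1 takes 65.0 to 65.7% in si-eIF4E+M5 libraries and 58.7 to 61.4% in si-NC+M5 libraries, and ELOVL7 takes about 1% and about 2%.

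Among the desaturases FADS2 rose, the enzyme of the first and rate-limiting desaturation of linoleic acid, which in human sebaceous cells also converts palmitate to sapienate (ENSG00000134824, plus strand of chromosome 11, 61792980 to 61867354). It had 11.6, 13.1 and 13.3 CPM in si-eIF4E+M5, against 8.04, 9.01 and 7.66 CPM in si-NC+M5, from 869, 966 and 972 counts against 572, 630 and 561. Every si-eIF4E+M5 library was above every si-NC+M5 library. The fitted level was 154% of si-NC+M5 (129 to 184%), a log2 fold change of 0.62 ± 0.12 with adjusted p = 0.0059 in edgeR. The call was kept in all 15 alternatives that tested it, with log2 fold changes of 0.31 to 0.69, the smallest on log2(FPKM + 1), a scale that understates changes of low genes.

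FADS1, which adds the last double bond of arachidonic acid, did not pass (ENSG00000149485, minus strand of chromosome 11, 61799627 to 61829318). Its level was 4.37, 4.54 and 3.69 CPM in si-eIF4E+M5, against 3.20, 3.93 and 3.37 CPM in si-NC+M5. The lowest si-eIF4E+M5 library lay between the si-NC+M5 libraries. The log2 fold change was 0.26 ± 0.17 (adjusted p = 0.36 in edgeR), and the limits of 92.3 and 156% of si-NC+M5 leave room for a change as large as that of FADS2. The 2 genes overlap on opposite strands, with 490 bases of exon in common (4.79% of FADS1 and 4.44% of FADS2), and whether counting used strand is not given in the sources used here. FADS2 also shares 49 exon bases (0.444% of its exons) on the same strand with FEN1, which had 5170, 5192 and 5224 counts in si-eIF4E+M5, against 3882, 3271 and 4325 in si-NC+M5. The part of FEN1 reads in the FADS2 counts was not tested. With the counts of both genes summed, a fit added after the data were seen, the log2 fold change was 0.52 (adjusted p = 0.0075 in edgeR).

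SCD, the desaturase that makes monounsaturated fatty acids, did not pass at its very high level (ENSG00000099194, plus strand of chromosome 10, 100347233 to 100364826). It had 5099.7, 5225 and 5739.99 CPM in si-eIF4E+M5, against 4537, 4822 and 5204 CPM in si-NC+M5. The highest si-NC+M5 library was above the lowest si-eIF4E+M5 library, so the groups overlapped. The log2 fold change was 0.14 ± 0.07 (adjusted p = 0.20 in edgeR), with 99.5 and 122% of si-NC+M5 as limits. SCD had between 322834 and 420305 counts per library, so counting error was small beside the spread between replicates. Of the other desaturases, SCD5 stood at 31.1 ± 1.11 CPM in si-eIF4E+M5 and 30.8 ± 0.49 CPM in si-NC+M5 (log2 fold change 0.01 ± 0.07). DEGS1, which puts the double bond into ceramides, fell to 36.2 ± 2.69 CPM in si-eIF4E+M5, against 53.2 ± 3.83 CPM in si-NC+M5 (-0.56 ± 0.08, adjusted p = 0.0016 in edgeR). FADS3, the neighbour of FADS1 and FADS2 on chromosome 11 that acts on sphingoid bases, fell by 0.32 ± 0.08 on the log2 scale (adjusted p = 0.019 in edgeR), a call lost in 7 of 16 alternatives. Of 11 tested other desaturases and electron carriers 0 were higher and 2 lower, beside 7.44% higher and 8.40% lower over all tested genes. The number of lower genes was 1 without si-eIF4E+M5 replicate 2 or 3 or si-NC+M5 replicate 1 or 2. The number of higher genes was 1 under upper quartile or library total scaling, DESeq2 and both limma fits. It was also 1 with a mean FPKM of at least 5, with the replicate block and without si-eIF4E+M5 replicate 1. The 7 tested genes of the cytochrome b5 system, which hands electrons to the desaturases, had adjusted p between 0.10 (CYB5R3, 0.18 ± 0.07) and 0.83 (CYB5R1, -0.03 ± 0.06) in edgeR.

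FASN did not pass (ENSG00000169710, minus strand of chromosome 17, 82078338 to 82098294). It had 1358, 1416 and 1833 CPM in si-eIF4E+M5, against 1220.3, 1453 and 1430.4 CPM in si-NC+M5. Replicate 3 of si-eIF4E+M5 was above all other libraries, and the other 5 libraries of both groups were mixed. The log2 fold change was 0.17 ± 0.11 (adjusted p = 0.37 in edgeR; 94.5 to 133% of si-NC+M5), and 0.02 without si-eIF4E+M5 replicate 3. Of 10 tested genes that supply FASN with acetyl-CoA, malonyl-CoA and NADPH or regulate that supply, 1 rose and 1 fell, with a median log2 fold change of 0.09. The shares over all tested genes were 7.44% higher and 8.40% lower. The malic enzyme ME1, a source of NADPH, rose to 78.4 ± 1.23 CPM in si-eIF4E+M5, against 57.9 ± 4.18 CPM in si-NC+M5 (0.44 ± 0.07, adjusted p = 0.0020 in edgeR). MID1IP1, which helps acetyl-CoA carboxylase polymerise, fell to 110.0 ± 2.57 CPM in si-eIF4E+M5, against 144 ± 8.64 CPM in si-NC+M5 (-0.39 ± 0.06, adjusted p = 0.0028 in edgeR). The enzymes directly before FASN did not pass, with log2 fold changes of 0.03 ± 0.08 for ACLY and -0.12 ± 0.09 for ACACA.

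Of 5 tested enzymes that complete the elongation cycle 1 rose and 1 fell. Over all tested genes 7.44% were higher and 8.40% lower. HACD3, a dehydratase of the third step, fell to 82.2 ± 6.30 CPM in si-eIF4E+M5, against 122 ± 2.23 CPM in si-NC+M5 (-0.57 ± 0.07, adjusted p = 6.0e-04 in edgeR). TECR, the reductase of the last step, rose to 165 ± 0.81 CPM in si-eIF4E+M5, against 132 ± 5.56 CPM in si-NC+M5 (0.32 ± 0.06, adjusted p = 0.0039 in edgeR). The other 3 tested genes of the cycle did not pass: the reductase HSD17B12 (-0.07 ± 0.05) and the dehydratases HACD2 (0.19 ± 0.08) and HACD1 (0.30 ± 0.21). Levels of ELOVL7, ELOVL5, ELOVL6 and HACD3 were thus lower and that of TECR higher within the same cycle. The ELOVL6 call was lost in 8 of 16 alternatives. ELOVL1, the main elongase, did not pass (-0.06 ± 0.06), and neither did ELOVL4 (-0.36 ± 0.24).

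Of 21 tested regulators of lipid synthesis 2 rose and 1 fell, with a median log2 fold change of -0.02. Over all tested genes 7.44% were higher and 8.40% lower, which also applies to the lists that follow. SREBF1 rose to 482 ± 25.9 CPM in si-eIF4E+M5, against 413 ± 14.6 CPM in si-NC+M5 (0.22 ± 0.06, adjusted p = 0.030 in edgeR), a call lost in 6 of 16 alternatives. INSIG1, which retains the SREBP complex in the endoplasmic reticulum and is itself a SREBP target, rose to 328 ± 7.79 CPM in si-eIF4E+M5, against 254 ± 9.35 CPM in si-NC+M5 (0.37 ± 0.05, adjusted p = 0.0020 in edgeR). The fatty acid receptor PPARD fell by 0.22 ± 0.06 on the log2 scale, and 10 of 16 alternatives lost that call. The number of higher regulators was 1 without any single library other than si-eIF4E+M5 replicate 2. The number of lower ones was 0 without any single library other than si-NC+M5 replicate 3. Under upper quartile or library total scaling, DESeq2 and both limma fits 3 regulators were higher. The same held for a mean FPKM of at least 5 and for the replicate block, and without the filter on low counts 1 was higher. SREBF2, SCAP and the LXR genes NR1H2 and NR1H3 did not pass, with log2 fold changes of -0.02, -0.05, -0.07 and 0.26. Genes of cholesterol synthesis and uptake, driven mainly by SREBP-2, showed 7 of 23 higher and 1 lower (median 0.15), with the cyclase LSS at 0.42 ± 0.07 and the sterol oxidase MSMO1 at -0.38 ± 0.06. Among 7 tested LXR targets MYLIP (0.54 ± 0.08) and LPCAT3 (0.59 ± 0.07) rose, while 3 of the 7 had fold changes below 0. ABCA1 (-0.51 ± 0.20, adjusted p = 0.13 in edgeR) and ABCG1 (-0.25 ± 0.13, adjusted p = 0.24), the cholesterol exporters, were among these and are named after their values were seen. LPCAT3 places polyunsaturated fatty acids into phospholipids. Of the SREBP-1 targets named in the background above, which need not be complete, FADS2 rose (0.62) and ELOVL6 fell (-0.22, a call lost in 8 of 16 alternatives). SCD, FASN and FADS1 did not pass, with log2 fold changes above 0 (0.14, 0.17 and 0.26). ELOVL5, not among those named, fell (-0.35), a call kept in all 16 alternatives. The part of SREBP-1 in these values was not tested.

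Genes that use the products of elongation and desaturation were called in both directions, where 7.44% of all tested genes were higher and 8.40% lower. Of 16 tested genes of ceramide and acylceramide synthesis 3 rose and 4 fell (median -0.09). ALOXE3, a lipoxygenase of the epidermal barrier, fell to 5.62 ± 0.33 CPM in si-eIF4E+M5, against 11.8 ± 0.42 CPM in si-NC+M5 (-1.08 ± 0.11), and KDSR, the second enzyme of sphingoid base synthesis, fell by 0.53 ± 0.05 on the log2 scale. SMPD1 (0.75 ± 0.10) and SPTLC3 (0.73 ± 0.13) rose. CERS3, the synthase of ceramides with very long acyl chains, was near the detection limit, with 47, 42 and 71 counts in si-eIF4E+M5 against 5, 19 and 11 in si-NC+M5. CERS3 was chosen after its values were seen, and its call (2.13 ± 0.55, adjusted p = 0.026 in edgeR) was lost in 8 of 15 alternatives. Among 18 acyltransferases of glycerolipids 2 rose and 4 fell (median -0.01), with LPCAT1 at 0.60 ± 0.06 and GPAT3 at -0.80 ± 0.13. The higher count there was 1 without si-eIF4E+M5 replicate 1 or 2 or si-NC+M5 replicate 2. Of 13 tested genes of fatty acid uptake and activation 3 rose and 1 fell (median 0.10). ACSL4, which activates arachidonic acid, fell by 0.42 ± 0.06 on the log2 scale, and ACSL5 (0.38 ± 0.09) and ACSL1 (0.35 ± 0.08) rose, each with a call lost in 4 alternatives. The count of 3 higher was 0 without si-eIF4E+M5 replicate 3 or si-NC+M5 replicate 2. It was 1 where si-eIF4E+M5 replicate 2 or si-NC+M5 replicate 1 or 3 was left out. Of 13 tested genes that release or oxygenate arachidonic acid, only the cyclooxygenase PTGS1 passed in edgeR (0.57 ± 0.12).

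Genes of fatty acid oxidation, the opposite pathway, gave 8 of 22 higher and 0 lower, beside 7.44% higher and 8.40% lower over all tested genes. Their median log2 fold change was 0.24, beside -0.01 over all tested genes. DECR1, the reductase that oxidation of polyunsaturated fatty acids needs, rose to 42.4 ± 3.41 CPM in si-eIF4E+M5, against 29.5 ± 1.79 CPM in si-NC+M5 (0.52 ± 0.08, adjusted p = 0.0023 in edgeR). ETFDH (0.44 ± 0.09), ECI2 (0.36 ± 0.08) and ETFB (0.33 ± 0.08) followed. CPT1A (-0.23) and HADH (-0.15), chosen after their values were seen, were the 2 lower genes with an unadjusted p under 0.05 in edgeR, and DESeq2 called 9 genes of the list higher and 1 lower. The count of 8 was smaller without any single library. It became 3 when replicate 2 of either group was left out, 4 when si-NC+M5 replicate 3 was, and 5 when si-NC+M5 replicate 1 was. Without si-eIF4E+M5 replicate 1 or 3 it was 6. Over all genes the number higher also fell with a library left out, from 1340 to between 724 and 1168.

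**Figure D4:**
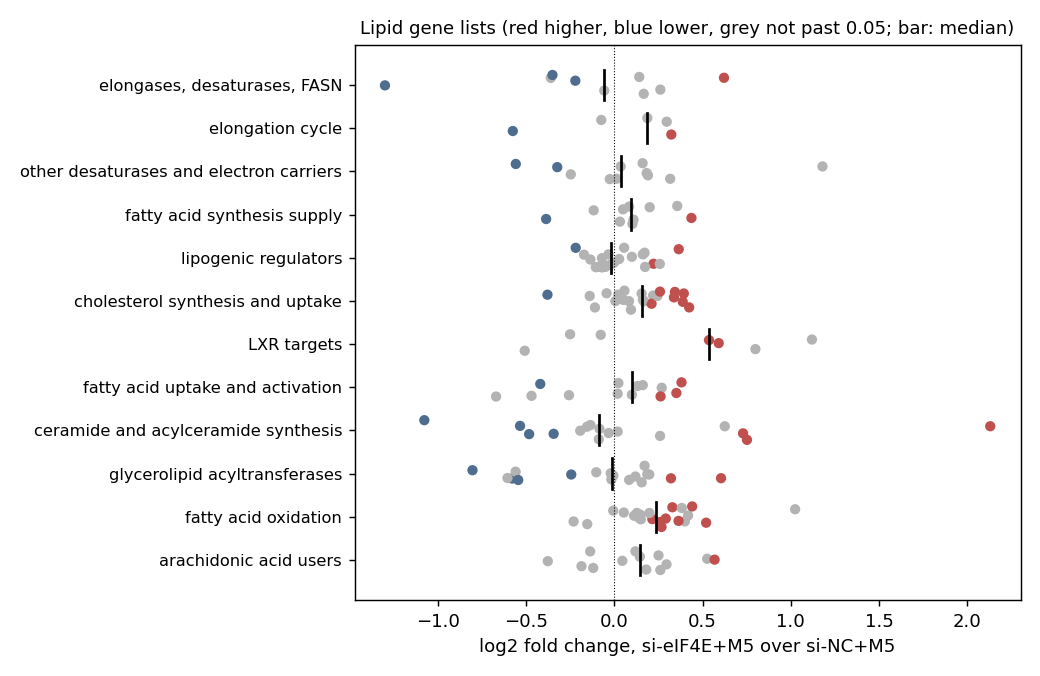
Fold changes on the log2 scale (si-eIF4E+M5 over si-NC+M5, n = 3 each) of each tested gene in the lipid gene lists, a point per gene, in red for genes that rose, blue for genes that fell and grey for genes that did not pass, with a bar at each list's median. The median of fatty acid oxidation lies at 0.24 and that of the elongases, desaturases and FASN at -0.06.

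Profiles over the 6 libraries were compared with 6619 other genes of mean FPKM of at least 5, by the root mean square difference of mean-centred log2 CPM. Nearest to ELOVL7 were GADD45A (0.067) and IL1B (0.090), with log2 fold changes of -1.23 and -1.29. Nearest to FADS2 were KRT13 (0.075) and LGALS1 (0.085), with log2 fold changes of 0.66 and 0.64. The nearest profiles were those of NAA50 (0.022) and FAM216A (0.024) for ELOVL5, and those of UBQLN1 (0.0084) and RRP1B (0.014) for ELOVL6. The measure includes the difference between the groups, so the choice of nearest genes fixes that they share its direction. Within groups the 9 genes varied by different amounts, with a coefficient of variation of 1.69% for ELOVL5 in si-eIF4E+M5 at the low end and 33.9% for ELOVL4 in si-NC+M5 at the high end. Replicate 3 was the highest si-eIF4E+M5 library and replicate 1 the lowest for both SCD and FASN, and replicate 1 was also the lowest si-NC+M5 library for both.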

How the data were processed

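Gene expression was measured by RNA sequencing of 3 si-eIF4E+M5 and 3 si-NC+M5 libraries of HaCaT cells. The deposited table holds raw counts per gene and FPKM values that the authors computed from those counts per gene length and library total. Per the submitters' processing notes, cutadapt 1.9 and FastQC were used with GRCh38. The sources used here name no aligner, counting tool, annotation or strand setting. Counts were tested with edgeR 4.0.16 in R 4.3.3 (filterByExpr with a minimum of 10 counts, TMM factors of 0.98 to 1.04, quasi-likelihood fit, two-sided, Benjamini-Hochberg over 18022 genes, threshold 0.05). CPM values are TMM-scaled counts, and fold changes (si-eIF4E+M5 relative to si-NC+M5) are on the log2 scale with SE.

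No library was a copy of another of its group (chi-squared of 22.9 to 27.7 per degree of freedom). All 10 genes and EIF4E are named. In the other lists up to 4 called genes per direction with a mean FPKM of at least 1 could be named, and in the 4 lists nearest to the pathway every tested gene. The members and lists were chosen with earlier results of these data known, so their counts are descriptions. GENCODE v29 gave exons. The other settings were DESeq2 1.42.0 (its test and its size factors), upper quartile and library total scaling, limma 3.58.1 on log2(FPKM + 1) and log2(FPKM + 0.1), other filters, a robust spread, a replicate block and each library left out.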

Additional observations from a re-analysis of the deposited data

How the results depend on the processing

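The falls of ELOVL5 and ELOVL7, the rise of FADS2 and the fall of EIF4E kept their direction and stayed past the threshold in each of the 15 or 16 other settings that tested them. ELOVL6 lost its call on log2(FPKM + 1) (-0.17, adjusted p = 0.067 in limma), on log2(FPKM + 0.1) (-0.19, 0.063) and without a filter on low counts (-0.22, 0.052 in edgeR). With a mean FPKM of at least 5, which leaves out FADS2, 0 of 5 tested genes of the set rose in edgeR, where SCD had an adjusted p of 0.104. Over all genes, 801 were higher without the filter, and leaving out a library gave 724 to 1168 higher and 874 to 1191 lower genes. The lipid lists together gave 30 higher and 15 lower of 159 tested genes, beside 7.44% higher and 8.40% lower over all tested genes. With a library left out they gave 18 to 25 higher, the fewest without si-NC+M5 replicate 2. Of the 45 called genes of these lists 17 lost their call in at least 1 setting. The difference in the ELOVL4 share of elongase FPKM ranged from -1.09 to 0.0229 percentage points with a library left out, and turned positive without si-NC+M5 replicate 3. The cause of these shifts was not tested, beyond the smaller number of libraries or genes. Deviations from the group means correlated at 0.030, 0.032 and 0.044 between same-numbered libraries, and at -0.030 to -0.0021 between differently numbered ones. Each library thus correlated best with its own number. These small values, from 3 libraries per group, cannot decide whether the replicate numbers pair the samples. With the replicate number as a block 2 of the 9 genes rose, FADS2 and SCD (0.14, adjusted p = 0.049 in edgeR), and 1586 genes were higher. The least deeply measured of the 9 genes were ELOVL7, with 179 to 510 counts per library, and FADS1, with 228 to 334, and the SE of their log2 fold changes (0.16 and 0.17) was larger than that of ELOVL5 (0.06).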
